A study of Mus musculus and Rattus norvegicus with 6 samples.

Results

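DNA replication and G1/S genes were examined after depletion of YAP and TAZ, the transcriptional coactivators that act at the end of the Hippo pathway. The gene set held 48 genes of origin licensing, the replicative helicase, the clamp and its loader, the replicative polymerases, nucleotide supply, strand maturation, chromatin assembly and G1/S control. They were taken by symbol from a list of pathway genes that set no threshold on measured values but was drawn up with earlier results of these data known, and all 48 were found among the 55573 genes of the bulk RNA-seq table. The cells were mouse smooth muscle cells (SMCs) transfected with control siRNA (siCo) or with siRNA against both Yap1 and Wwtr1, the gene that encodes TAZ (siYAP/TAZ), with 2 libraries of each. The sample labels give the cell line MOVAS, an immortalised mouse aortic SMC line, with wild-type genotype and no other treatment in either group, whereas the study assigns this comparison to penile SMCs in primary culture. Which of them was sequenced could not be settled. The sources used here give no time after transfection, no cell density and no siRNA mix for the sequenced cells. The supplement of the study lists 2 siRNA mixes against Yap1 and Wwtr1. Whether the siYAP/TAZ libraries share a mix could not be settled, so effects of a mix on other genes cannot be told apart. If the cells were MOVAS, they carried the SV40 large T antigen, which binds proteins of the Rb family and would limit them as a model of G1/S control. The labels do not say whether the libraries of a group were separate cultures. A legend of the study gives n = 2 biologically independent samples for a qRT-PCR panel of genes from the RNA-seq. It does not say this of the sequenced libraries. The p-values therefore measure the spread between these libraries only, with the spread of each gene moderated by that of all genes.

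Total counts were 17192309 to 18751368 per library. Values are given as FPKM, the count scaled to the exonic length of the gene and to the library's total. Yap1 was at 21.85 and 23.49 FPKM in siCo and at 1.872 and 2.03 FPKM in siYAP/TAZ, and Wwtr1 was at 56.45 and 59.08 FPKM against 16.79 and 17.65 FPKM, so the siRNA targets followed the labels. Smooth muscle markers were detected, with Acta2 (smooth muscle actin) at 138.4 and 141.9 FPKM in siCo and 68.75 and 66.14 FPKM in siYAP/TAZ, but Myh11 (smooth muscle myosin heavy chain) was near 1 FPKM in every library. Summed over 9 smooth muscle markers, the level was 209.2 and 213.4 FPKM in siCo and 109.4 and 104.7 FPKM in siYAP/TAZ, with 5 of 9 lower, 1 higher and 3 that did not pass the test. Markers of other cells were present as well. The 6 endothelial markers summed to 83.42 to 86.38 FPKM in all 4 libraries, with Cdh5 (VE-cadherin) at 41.7 to 45.75 FPKM. That level sum covers opposite changes, since 2 of the 6 were lower, 3 higher and 1 did not pass. Their log2 fold changes ran from -0.44 to 1.46. The 5 fibroblast markers summed to 347.3 and 282.2 FPKM in siCo and 495.7 and 463.9 FPKM in siYAP/TAZ, and all 5 were higher. The macrophage markers Adgre1, Tyrobp and C1qa were at 0 in all libraries. The 7 macrophage markers together summed to 8.839 and 8.941 FPKM in siCo against 13.29 and 17.55 FPKM in siYAP/TAZ. Cd68 made up most of that sum, at 7.863 and 8.383 FPKM against 10.82 and 13.7 FPKM. Of the 7, 3 were tested, and 2 were higher and 1 did not pass. Those higher were Cd68 and Lyz2, with log2 fold changes of 0.63 and 2.52. The part of these markers in the results on replication genes was not tested.

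Chromosomes are copied once per cell cycle. In G1, the origin recognition complex, CDC6 and CDT1 load the ring-shaped MCM2-7 helicase onto origins. At the G1/S boundary, cyclin E with CDK2 releases E2F transcription factors from Rb proteins, E2F activates genes of replication and nucleotide supply, and CDC45 and GINS join the helicase to start unwinding. These genes are therefore known as markers of proliferating cells, and in cultured SMCs their transcripts accompany the switch from a contractile to a dividing state.

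The replication and G1/S genes were lower after YAP/TAZ depletion almost throughout. Of 48 members, all of which were abundant enough to be tested, 44 passed the test in the direction of a decrease (91.7%), none passed as an increase and 4 did not pass (edgeR quasi-likelihood test, adjusted p under 0.05). The count of 0 increases was also 0 at an unadjusted p under 0.05 and in DESeq2. In the same comparison, 27.7% of all 15479 genes tested were called lower and 27.6% were called higher. The median log2 fold change of the members was -0.75, and that of all genes tested was 0.00. In 46 members both siYAP/TAZ libraries lay below both siCo libraries, a pattern that 42.2% of all genes tested showed. Among the 44 that passed, the decrease ranged from 1.20-fold (Rfc2) to 2.62-fold (Cdc6). A log2 fold change between -0.5 and -1 was found in 35 members. The share of all genes tested in that band was not counted. Only 3 of the 48 members (Cdc6, Orc1 and Mcm5) fell by at least 2-fold, as did 488 of 15479 genes tested (3.15%). A count of 3 is too small to set the members apart by this measure. Taken as a share of the transcriptome, the 48 members held 0.405% and 0.404% of all counts in siCo and 0.243% and 0.237% in siYAP/TAZ. The groups did not overlap, and the mean was 1.69-fold higher in siCo (4047 ± 5.45 against 2398 ± 42.3 CPM, the same share scaled as CPM, SD, n = 2 each). An exact permutation test gave p = 0.333 (two-sided), the smallest that 2 against 2 libraries allow. In bulk RNA, fewer cells in late G1 or S phase and less of these transcripts per cell cannot be told apart.

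**Figure D1:**
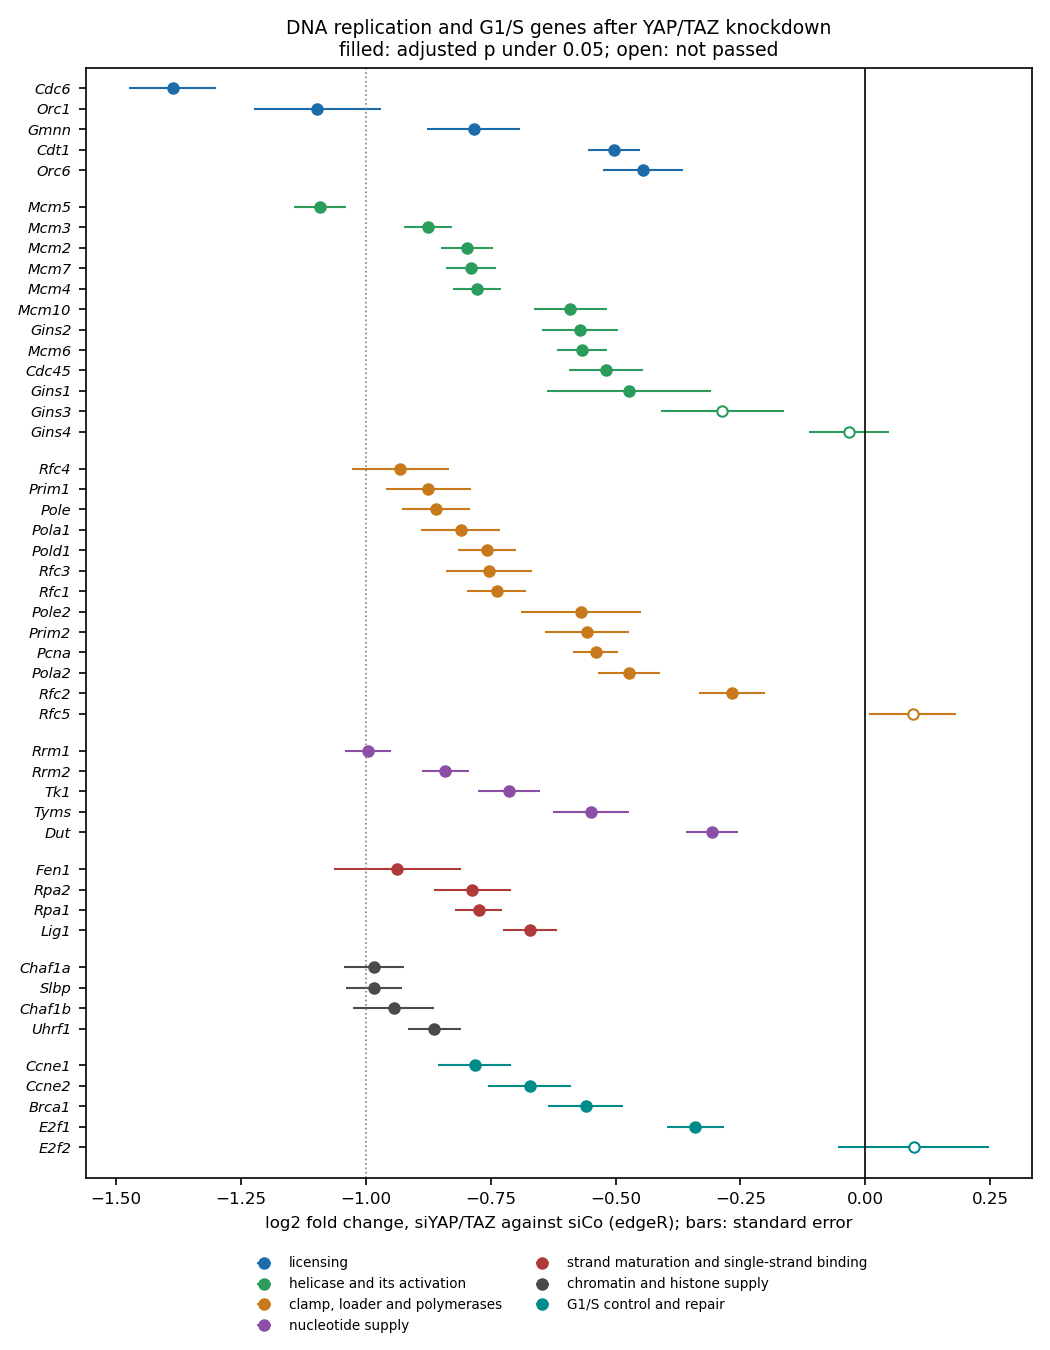
Log2 fold change of each of the 48 members in siYAP/TAZ against siCo (x axis) with the standard error as bars, by role (colour). Filled points passed the test and open points did not; 44 points are filled and to the left of 0, and the open points are Gins3, Gins4, Rfc5 and E2f2.

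Because several members are textbook E2F targets, short sequences around candidate E2F motifs are shown for them. RefSeq promoter windows (GRCm38.p6, 250 bases before to 50 bases after a transcription start) were matched by symbol for 39 of 48 members, with 45 windows in all. Each window was searched on both strands for the E2F forms TTTGGCGC, TTTCGCGC and TTCCCGCC. The following 30-base windows, printed 5′ to 3′ on the strand of the gene with the motif in capitals, are those of the 9 members with a match before the start, and that of E2f2, the member with a match that did not pass the test.
Mcm5 chr8:75109347-75109376 (+): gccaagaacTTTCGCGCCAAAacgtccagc
Mcm6 chr1:128359795-128359824 (-): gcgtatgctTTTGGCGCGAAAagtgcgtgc
Mcm6 chr1:128359734-128359763 (-): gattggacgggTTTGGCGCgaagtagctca
Orc1 chr4:108579416-108579445 (+): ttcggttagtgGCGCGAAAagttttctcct
Pola1 chrX:93632275-93632304 (-): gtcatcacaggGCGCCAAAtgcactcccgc
Prim1 chr10:128015189-128015218 (+): ggcctgtcttgTTCCCGCCaattctcgtgt
Rfc3 chr5:151651200-151651229 (-): acgtcgcacgcTTTCGCGCtcgcgggaaaa
Rrm1 chr7:102441617-102441646 (+): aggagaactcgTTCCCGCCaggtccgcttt
Chaf1a chr17:56040358-56040387 (+): ggttgccgcggTTCCCGCCaaatacgagcg
Uhrf1 chr17:56303278-56303307 (+): tgctttctcgcTTCCCGCCacagcgccagc
Uhrf1 chr17:56304117-56304146 (+): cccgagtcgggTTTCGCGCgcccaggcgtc
E2f2 chr4:136172294-136172323 (+): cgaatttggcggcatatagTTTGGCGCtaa

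In Mcm5 and in the distal window of Mcm6, the forms TTTGGCGC and TTTCGCGC overlap on opposite strands. The motif began 153 bases before the start in Mcm5, 110 and 47 bases before it in Mcm6, 27 in Orc1 and 10 in Rfc3, whereas in E2f2 it began at base 40 after the start. At least 1 of the E2F forms was found for 17 of 39 members (43.6%), against 6.19% of 11016 tested genes with a promoter window. By window, the shares were 40.0% of the 45 windows of members and 2.96% of all 32851 windows. The gene set includes textbook E2F targets, so the choice of members bears on this share and it is not an independent result. Cdc6, with the largest decrease of all members, had none of these forms in its window. With only the bases before the start, the shares were 23.1% of members and 5.24% of tested genes. The CCAAT box of NF-Y was found for 61.5% of members and 42.7% of tested genes. The cell-cycle element CHR (TTTGAA) was found for 12.8% of members against 14.5% of tested genes, and the TEAD motif (GGAATG), the element through which YAP and TAZ are recruited to DNA, for 12.8% against 14.7%. These last shares were close to those of all tested genes. Sites outside the windows were not searched, so the TEAD share cannot show whether YAP and TAZ act on these genes directly, and this was not tested. Of the members with a window, 16 of the 36 that fell had an E2F form, as did 1 of the 3 that did not pass. The median log2 fold change was -0.81 for members with the motif and -0.65 for members without it. A match is a description of letters and not evidence of a bound site.

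Licensing genes fell in all 5 cases, with a median log2 fold change of -0.78. Cdc6 (chr11:98907801-98923940, GRCm38, plus strand), which encodes the ATPase that recruits CDT1 and MCM2-7 to the origin, had the largest decrease of all members. It was at 7.488 and 7.233 FPKM in siCo and 2.815 and 2.636 FPKM in siYAP/TAZ. The libraries of a group were close to each other and the groups were far apart, with a log2 fold change of -1.39 (SE 0.0875), or 2.62-fold lower, and an adjusted p of 1.568e-11 in edgeR. Orc1, the ATPase subunit of the origin recognition complex whose level varies with the cell cycle in mammals, was at 4.808 and 4.878 FPKM against 2.039 and 2.357 FPKM. Its log2 fold change was -1.10 (SE 0.127, edgeR adjusted p = 1.995e-07). The smallest decrease in this role was that of Orc6, another subunit of the complex, at 22.98 and 23.67 FPKM against 18.45 and 14.7 FPKM. The siYAP/TAZ libraries of Orc6 differed more from each other than the siCo libraries did, and the log2 fold change was -0.45 (SE 0.0804, edgeR adjusted p = 7.007e-05). Of its exonic bases, 6.93% overlap Vps35 on the opposite strand, which was called lower. Cdt1, the loader that acts beside CDC6, went from 30.97 and 31.53 FPKM to 21.57 and 21.19 FPKM, a log2 fold change of -0.50 (SE 0.0528). Gmnn, which encodes geminin, the inhibitor of CDT1 in S and G2 phase, went from 20.24 and 19.12 FPKM to 11.65 and 10.48 FPKM, a log2 fold change of -0.78 (SE 0.0933). The loading factor and its inhibitor thus both decreased.

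All 6 subunits of the MCM2-7 helicase decreased, with log2 fold changes of -0.57 to -1.09 and a median of -0.79. Their levels were 19.2 to 45.8 FPKM in siCo and 11.1 to 29.03 FPKM in siYAP/TAZ. Mcm5 (chr8:75109569-75128439, plus strand) decreased most, from 36.8 and 34.9 FPKM to 16.21 and 16.4 FPKM. It was 2.13-fold lower, with a log2 fold change of -1.09 (SE 0.0515, edgeR adjusted p = 1.405e-13). Mcm6 decreased least among the 6, from 42.77 and 41.75 FPKM to 29.03 and 26.23 FPKM, a log2 fold change of -0.57 (SE 0.0501, edgeR adjusted p = 3.499e-09). Mcm2, Mcm3, Mcm4 and Mcm7 lay between them, at -0.80, -0.88, -0.78 and -0.79. Mcm10, a scaffold that binds the helicase at initiation, was at 5.853 and 5.862 FPKM against 3.876 and 3.66 FPKM, a log2 fold change of -0.59 (SE 0.0729). The groups did not overlap for any of these genes.

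The factors that activate the helicase fell less evenly. Cdc45, which travels with the helicase, went from 13.32 and 12.96 FPKM to 8.503 and 9.291 FPKM, a log2 fold change of -0.52 (SE 0.0734, edgeR adjusted p = 3.365e-06). The GINS complex has 4 subunits, and 2 of their genes passed the test. Gins2 went from 10.54 ± 0.658 FPKM to 6.882 ± 0.105 FPKM (SD, n = 2 each), a log2 fold change of -0.57 (SE 0.076). Of the exonic bases of Gins2, 67.3% overlap Gse1 on the opposite strand, which was called higher, and since the strand setting of the counting is not given, reads there cannot be told apart. Gins1 was at 5.552 and 6.146 FPKM against 3.518 and 4.681 FPKM, a log2 fold change of -0.47 (SE 0.165, edgeR adjusted p = 0.01945). This was the weakest call among the members. It was lost without siCo replicate 2 (-0.40, edgeR adjusted p = 0.06426), without siYAP/TAZ replicate 1 (-0.27, edgeR adjusted p = 0.2796) and in DESeq2 (adjusted p = 0.1526), and the adjusted p ranged from 0.006054 to 0.2796 over the alternatives.

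The other GINS subunits did not pass. Gins3 was at 5.272 and 5.302 FPKM in siCo and 4.567 and 3.822 FPKM in siYAP/TAZ, with a log2 fold change of -0.29 (SE 0.123, edgeR adjusted p = 0.0536). The groups did not overlap, and the gene passed in 7 of 12 alternatives, among them the fit without siYAP/TAZ replicate 1 (edgeR adjusted p = 0.02207), with adjusted p ranging from 0.02207 to 0.3984. Gins4 (chr8:23226616-23237659, minus strand) was at 21.54 and 23.02 FPKM against 21.35 and 20.87 FPKM. Its log2 fold change was -0.03 (SE 0.0803, edgeR adjusted p = 0.7529), and its sign changed without siCo replicate 2 (0.02). In FPKM, Gins4 was the most abundant of the 4 subunits in every library.

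**Figure D2:**
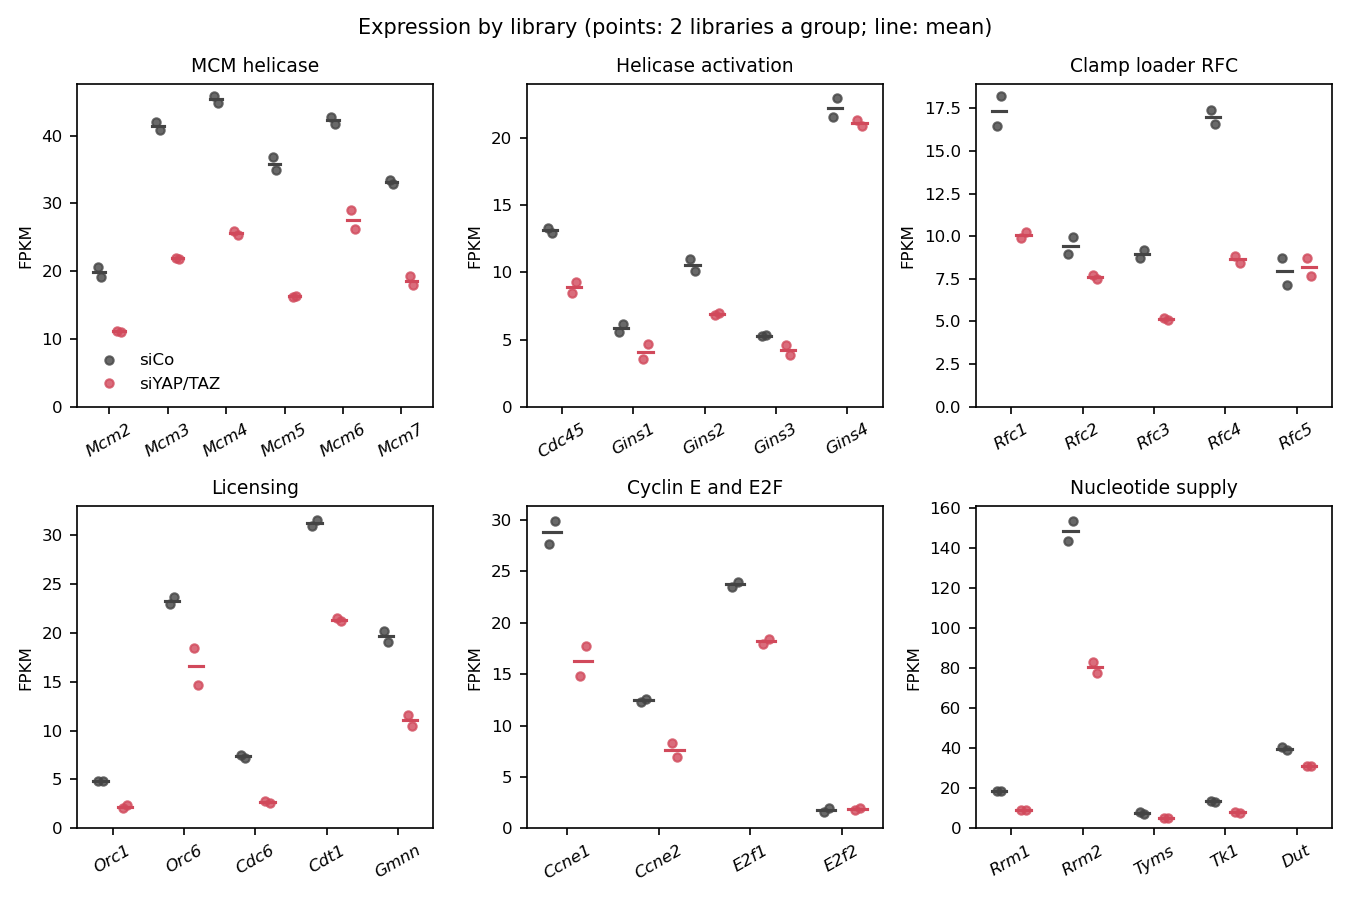
FPKM of 30 members (y axis, from 0) in the 2 siCo and the 2 siYAP/TAZ libraries (points), with the group mean as a line, for 6 groups of genes. The points of the groups are apart for all 6 MCM subunits and interleave only for Rfc5 and E2f2.

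Of the 13 genes of the clamp, its loader and the polymerases, 12 decreased, with a median log2 fold change of -0.74. Pcna, the sliding clamp, was among the most abundant members, at 113.0 and 118.6 FPKM in siCo and 78.82 and 75.69 FPKM in siYAP/TAZ, a log2 fold change of -0.54 (SE 0.045, edgeR adjusted p = 1.44e-09). The RFC genes, whose products load the clamp, were split. Rfc4 decreased most, from 17.43 and 16.61 FPKM to 8.836 and 8.461 FPKM, a log2 fold change of -0.93 (SE 0.0975, edgeR adjusted p = 4.865e-08). Of its exonic bases, 12.7% overlap Eif4a2 on the opposite strand, a more abundant gene that was called lower, and reads there cannot be told apart. Rfc1, the large subunit, and Rfc3 decreased by 0.74 and by 0.75 on the log2 scale. Rfc2 decreased least among those that passed, from 8.952 and 9.934 FPKM to 7.725 and 7.484 FPKM, a log2 fold change of -0.27 (SE 0.0664, edgeR adjusted p = 0.001715).

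Rfc5 (chr5:117378103-117389047, minus strand) differed from the other loader genes in that its groups overlapped, at 8.712 and 7.162 FPKM in siCo and 8.749 and 7.674 FPKM in siYAP/TAZ. Its log2 fold change was 0.09 (SE 0.0878, edgeR adjusted p = 0.3789), and the value depended on single libraries. Without siCo replicate 1 the gene was called higher (0.24, edgeR adjusted p = 0.02209), and without siCo replicate 2 or siYAP/TAZ replicate 1 the sign turned (-0.04 and -0.0016), with adjusted p from 0.02209 to 0.9916 over the alternatives. Of its exonic bases, 10.7% overlap Wsb2 on the opposite strand, which was called higher. In the whole of RFC, 4 of 5 subunits were lower.

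All 7 genes of the polymerases and primase decreased, by 0.47 to 0.87 on the log2 scale, with a largest adjusted p of 0.0003814 in edgeR (Pole2). Prim1, the catalytic primase subunit that makes the RNA primers, went from 11.46 and 9.864 FPKM to 5.653 and 5.624 FPKM, a log2 fold change of -0.87 (SE 0.0856). Pole, the catalytic subunit of the leading-strand polymerase, went from 6.326 and 6.162 FPKM to 3.144 and 3.539 FPKM, a log2 fold change of -0.86 (SE 0.0675). Pola1, the catalytic subunit of polymerase alpha, was at 4.671 and 4.997 FPKM against 2.741 and 2.6 FPKM, a log2 fold change of -0.81 (SE 0.0787). These catalytic subunits had non-overlapping groups. Pold1, the catalytic subunit of the lagging-strand polymerase, decreased by 0.76, and the accessory subunits Pola2, Prim2 and Pole2 decreased by 0.47, by 0.56 and by 0.57 on the log2 scale.

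The 5 genes of nucleotide supply decreased as well, with a median of -0.71. Rrm2, the small subunit of ribonucleotide reductase that limits the enzyme in S phase, was the most abundant member, at 143.5 and 153.4 FPKM in siCo and 82.97 and 77.73 FPKM in siYAP/TAZ. Its log2 fold change was -0.84 (SE 0.0468, edgeR adjusted p = 2.024e-12). Rrm1, the large subunit, had the largest decrease of this role, from 18.58 and 18.38 FPKM to 8.921 and 9.053 FPKM. The libraries within each group were nearly equal, and the gene was 1.99-fold lower (SE 0.0461 on the log2 scale, edgeR adjusted p = 1.047e-13). Tyms, which makes thymidylate, and Tk1, which salvages thymidine, had log2 fold changes of -0.55 and -0.71. Dut, which removes dUTP before it can enter DNA, had the smallest decrease, from 40.6 and 39.03 FPKM to 31.11 and 31.33 FPKM, a log2 fold change of -0.31 (SE 0.0524, edgeR adjusted p = 3.708e-05).

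In strand maturation and single-strand binding, all 4 genes decreased, with a median of -0.78. Fen1, the nuclease that trims the flaps of Okazaki fragments, went from 6.726 and 6.549 FPKM to 3.633 and 3.074 FPKM, a log2 fold change of -0.94 (SE 0.127, edgeR adjusted p = 1.998e-06). The antisense gene Gm10143 covers 78.8% of the exonic bases of Fen1, but had only 6 counts in siCo replicate 1 and 9 in siYAP/TAZ replicate 1. Tmem258, on the opposite strand and called higher, overlaps 5.37% of them, with 1026 and 1096 counts in the same libraries. Reads there cannot be told apart. Lig1, the ligase that seals the fragments, had the smallest decrease, from 23.82 and 22.96 FPKM to 14.51 and 13.97 FPKM, a log2 fold change of -0.67 (SE 0.0544, edgeR adjusted p = 8.92e-10). Rpa1 and Rpa2, subunits of the protein that coats single-stranded DNA, had log2 fold changes of -0.77 and -0.79.

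The 4 genes of chromatin and histone supply had the lowest median of the 7 roles, at -0.96, and the values lay close together, from -0.86 to -0.98. Chaf1a, a subunit of the chaperone CAF-1 that deposits histones behind the fork, was at 10.75 and 10.39 FPKM in siCo and 5.409 and 4.94 FPKM in siYAP/TAZ. Its log2 fold change was -0.98 (SE 0.06, edgeR adjusted p = 8.939e-12). Of its exonic bases, 52.5% overlap Ubxn6 on the opposite strand, which was called higher. Slbp, which binds the stem-loop at the end of replication-dependent histone mRNAs, went from 16.53 and 17.35 FPKM to 8.303 and 8.309 FPKM, a log2 fold change of -0.98 (SE 0.0561, edgeR adjusted p = 3e-12). Uhrf1, which brings the maintenance DNA methyltransferase to newly copied DNA, had the smallest decrease here, from 34.52 and 31.38 FPKM to 17.57 and 17.58 FPKM, a log2 fold change of -0.86 (SE 0.0538, edgeR adjusted p = 1.293e-11). Chaf1b, another CAF-1 subunit, decreased by 0.94 on the log2 scale.

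Among the regulators of G1/S and repair, 4 of 5 decreased, with a median of -0.56. Ccne1 and Ccne2 encode the E-type cyclins that start S phase. Ccne1 went from 27.7 and 29.94 FPKM to 14.82 and 17.74 FPKM, a log2 fold change of -0.78 (SE 0.0732, edgeR adjusted p = 8.747e-09), and Ccne2 from 12.31 and 12.63 FPKM to 8.255 and 6.89 FPKM, a log2 fold change of -0.67 (SE 0.0832). For Ccne2, 17.4% of the exonic bases overlap Ints8 on the opposite strand, which was called lower. E2f1, an activating E2F factor, decreased least among those that passed, from 23.52 and 24.0 FPKM to 17.94 and 18.46 FPKM, a log2 fold change of -0.34 (SE 0.0572, edgeR adjusted p = 2.997e-05). E2f2, a close relative of E2f1, was the least abundant member, at 1.591 and 1.977 FPKM in siCo and 1.737 and 1.966 FPKM in siYAP/TAZ. Its groups overlapped and its log2 fold change was 0.10 (SE 0.151, edgeR adjusted p = 0.6125), with a change of sign without siCo replicate 1 (-0.05). Brca1, which protects stalled forks and acts in recombination repair, was at 4.945 and 4.965 FPKM against 3.175 and 3.347 FPKM, a log2 fold change of -0.56 (SE 0.0745, edgeR adjusted p = 1.513e-06).

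To ask whether partners of a complex or a step fell to different degrees, the log2 ratio of 16 pairs of members was taken within each library, where the scaling of the library cancels, and compared between the groups. The interval of the difference, unadjusted for the number of pairs, excluded 0 for 3 pairs. Cdc6 fell more than Cdt1, by -0.88 (95% interval -1.10 to -0.67), or 1.85-fold. Mcm5 fell more than Mcm7, by -0.30 (-0.57 to -0.03), or 1.23-fold, and Pola1 more than Pola2, by -0.34 (-0.63 to -0.05), or 1.26-fold. With 2 libraries in each group no exact permutation test can go below p = 0.333, which was the value for these 3 pairs. For Pola1 and Pola2 the interval included 0 on the log2(FPKM + 1) scale, where the difference was -0.22.

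For the other 13 pairs the interval included 0, which leaves the degree of a difference undetermined within its bounds. The narrowest was that of Tyms against Tk1, at 0.17 (-0.06 to 0.40), and that of Rpa1 against Rpa2 was 0.01 (-0.24 to 0.26). Rrm1 and Rrm2 differed by -0.15 (-0.50 to 0.19), and Cdt1 and its inhibitor Gmnn by 0.28 (-0.07 to 0.64). Wide intervals were found for Orc1 against Orc6, at -0.64 (-1.79 to 0.52), for Gins1 against Gins3, at -0.18 (-1.65 to 1.28), and for Ccne1 against Ccne2, at -0.10 (-1.23 to 1.03). The intervals of Pcna against Rfc1, at 0.20 (-0.09 to 0.48), Rfc1 against Rfc4, at 0.19 (-0.33 to 0.72), Prim1 against Prim2, at -0.31 (-0.90 to 0.28), Pole against Pole2, at -0.28 (-1.19 to 0.62), and Chaf1a against Chaf1b, at -0.05 (-0.71 to 0.61), were wider than that of Tyms against Tk1. E2f1 and E2f2 differed by -0.44 (-1.12 to 0.23). The difference between these factors was therefore not established, although E2f1 passed the test and E2f2 did not.

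**Figure D3:**
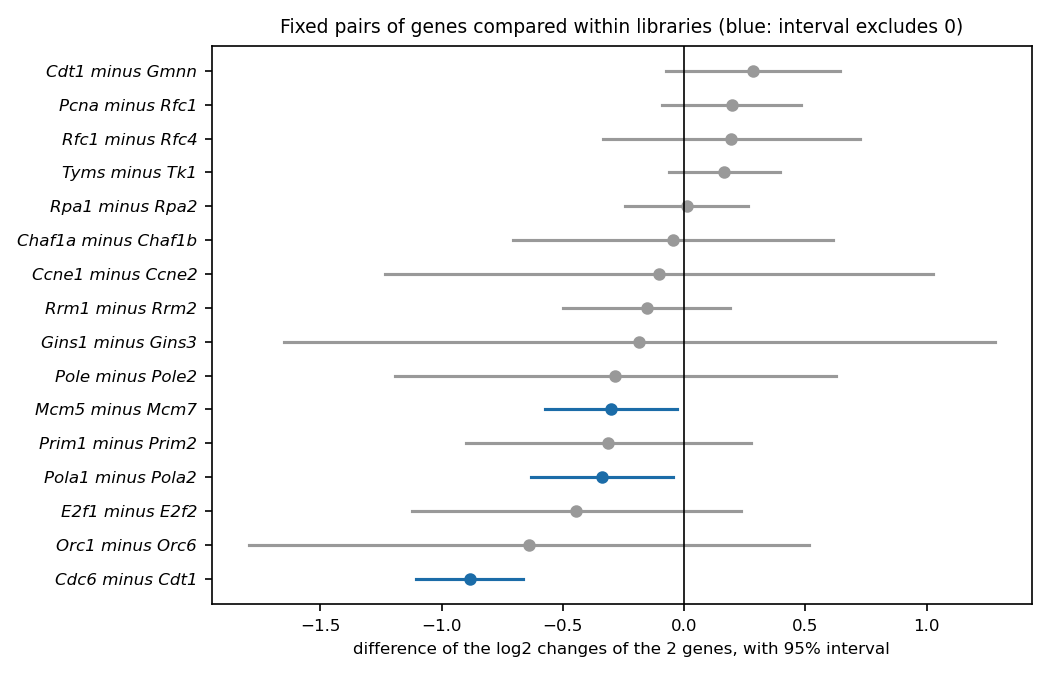
Difference between the log2 changes of the genes of each of 16 pairs, taken within libraries (x axis, points), with the 95% interval as a line. The intervals of Cdc6 minus Cdt1, Mcm5 minus Mcm7 and Pola1 minus Pola2 (blue) lie wholly below 0.

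Genes of the same pathway that are not members were counted next, from lists of 96 genes, of which 95 were tested. Of these, 75 were lower (78.9%), 4 higher and 16 did not pass, with a median log2 fold change of -0.67. Of all genes tested, 27.7% were lower and 27.6% higher. Like the members, these lists were drawn up with earlier results of these data known. Among 42 further genes of the replication machinery, 33 were lower, none was higher and 9 did not pass, with a median of -0.64. The largest decreases were those of Cdca7 at -1.71, Dna2 at -1.22 and Recql4 at -1.15. CDCA7 recruits the chromatin remodeller HELLS, DNA2 is a nuclease and helicase of flap processing, and RECQL4 is a helicase of initiation. All 14 genes of replication-coupled repair were lower, with a median of -0.77. Ung, which excises uracil from DNA, was at -1.63, and Exo1, an exonuclease of mismatch repair, at -1.14.

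Beside the 5 members of nucleotide supply, 15 other genes of this step were counted, and 12 were lower, 1 was higher and 2 did not pass, with a median of -0.75. Ctps, the CTP synthase gene, was at -1.35, Shmt1, which feeds one-carbon units to thymidylate, at -1.10, and Dctpp1, a dCTP pyrophosphatase, at -0.95. The gene that rose was Samhd1, which encodes an enzyme that breaks down deoxynucleoside triphosphates. It was at 16.39 and 16.05 FPKM in siCo and 35.05 and 35.45 FPKM in siYAP/TAZ. The groups were far apart, with a log2 fold change of 1.16 (SE 0.0434, edgeR adjusted p = 3.75e-15), or 2.24-fold higher.

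Of 17 genes of E2F, pocket proteins and the DREAM complex, 12 were lower, 2 higher and 3 did not pass, with a median of -0.61. E2f7, a repressive E2F that is itself induced in S phase, was at -1.33, Mybl2, the B-MYB partner of the MuvB core, at -1.25, and E2f5, a repressive E2F that works with pocket proteins, at -0.73. The genes that passed as higher were the pocket proteins Rbl2 (p130), which is known from resting cells, at 0.39 (SE 0.0778, edgeR adjusted p = 0.0002152), and Rb1 at 0.28 (SE 0.0875, edgeR adjusted p = 0.009931). The call of Rb1 was lost in DESeq2, in limma on FPKM, without siCo replicate 1 (0.22) and without siYAP/TAZ replicate 1 (0.17), with adjusted p from 0.002247 to 0.2117 over the alternatives. Of 7 tested genes of CDK activity at G1/S, 4 were lower, 1 higher and 2 did not pass, with a median of -0.72. Ccna2 (cyclin A2) was at -0.85, Cdc25a, the phosphatase that activates CDK2, at -0.80, and Fbxo5, an inhibitor of the anaphase-promoting complex, at -0.78. Cdkn1a, which encodes the CDK inhibitor p21, was the gene called higher, by 0.13 (SE 0.04, edgeR adjusted p = 0.006931). That call was lost under scaling by library totals, in limma on FPKM, without siYAP/TAZ replicate 1 (0.14) and without siYAP/TAZ replicate 2 (0.14), with adjusted p from 6.061e-05 to 0.09281. Skp2 is listed at 0 in all 4 libraries and was not tested.

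The tested histone genes of the replication-dependent clusters did not follow the members. Of 70 listed, 18 were abundant enough to be tested. None was lower, 8 were higher and 10 did not pass, with a median log2 fold change of 0.75. Of all genes tested, 27.6% were called higher. The count of 0 decreases was also 0 at an unadjusted p under 0.05 and in DESeq2, which called 6 higher. Over all alternatives, 3 to 12 were called higher and none lower. Of the 18 tested, Hist1h2bc had the most counts, 846 and 843 in siCo and 1467 and 1294 in siYAP/TAZ. Its log2 fold change was 0.77 (SE 0.0593, edgeR adjusted p = 3.806e-10). Hist1h1c was at 484 and 439 counts against 574 and 560 counts (0.36, SE 0.0827, edgeR adjusted p = 0.0007987). The largest increases were in genes with few counts. Hist2h3c2 was at 9 and 8 counts in siCo and 26 and 30 counts in siYAP/TAZ (log2 fold change 1.77, SE 0.433). It passed the filter on counts only through its siYAP/TAZ libraries. The 52 histone genes that were not tested include some with lower counts in siYAP/TAZ. The count and median above thus describe the tested genes only and are not support for a rise of the clusters. With no filter, 57 were tested, and 8 were higher and 0 lower. Hist1h2bg was at 11 and 13 counts against 35 and 35 counts (1.60, SE 0.383, edgeR adjusted p = 0.001254). Hist1h3d was at 11 and 18 counts against 25 and 32 counts (1.04), and its call was lost in DESeq2, without siCo replicate 1 (0.71) and without either siYAP/TAZ replicate (1.26 and 0.79), with adjusted p from 0.02296 to 0.2843. Most transcripts of these clusters carry no poly(A) tail, the selection of RNA for the libraries is not given, and the genes are near-identical copies, so their counts are uncertain.

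**Figure D4:**
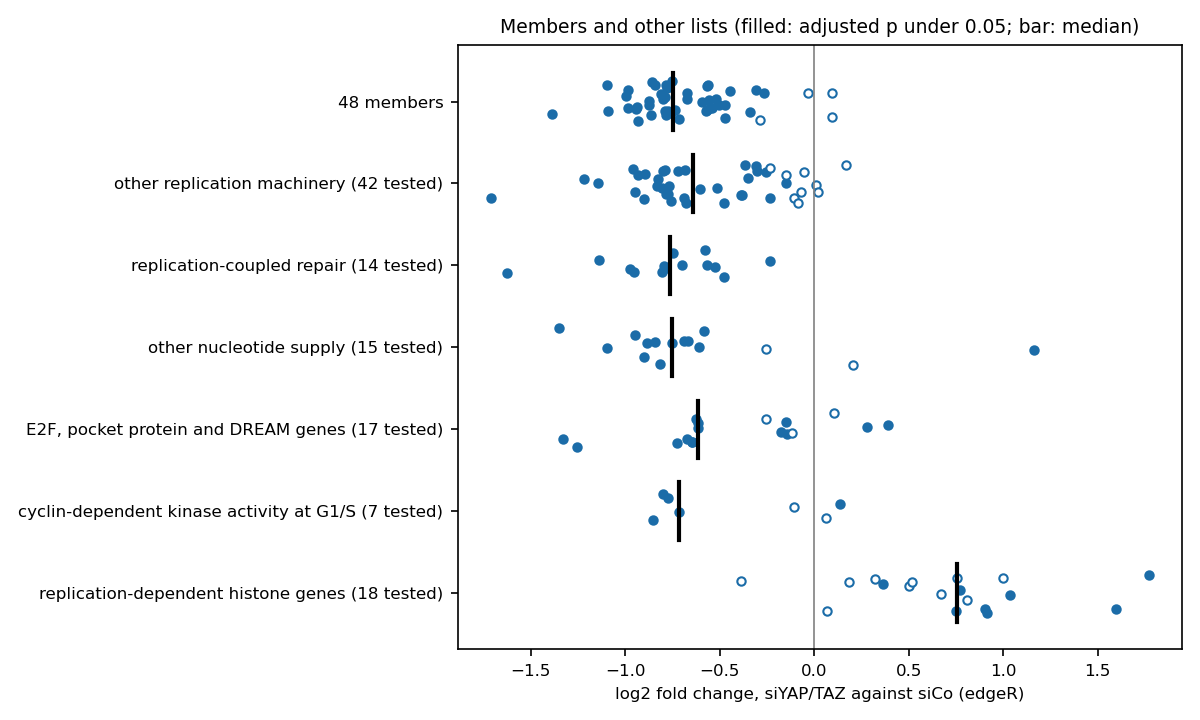
Log2 fold change in siYAP/TAZ against siCo (x axis) of the tested genes of each list (rows), with the median as a bar; filled points passed the test and open points did not. The medians of the 48 members and of the 5 other pathway lists lie between -0.61 and -0.77, and that of the histone genes lies at 0.75.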

How the data were processed

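The 4 bulk RNA-seq libraries of mouse SMCs (2 siCo, 2 siYAP/TAZ) were analysed. The 2 rat samples of the series were not analysed here. The submitters' processing notes name Trimmomatic, HISAT2 and mm10 (GRCm38), and the methods, written for tissue, describe featureCounts on uniquely mapped reads, by Ensembl gene. The sources used here give no versions, no strand setting and no Ensembl release. The deposited table holds raw counts and FPKM made by the authors. Dividing the count by exonic length and library total gave the deposited FPKM of all 55573 genes in both siCo libraries (within 0.005, the rounding), and this formula was applied to the counts of all 4 libraries. The 2 deposited FPKM columns of siYAP/TAZ could not be tied to single samples and were not used. The count columns of siYAP/TAZ show the group only, so their replicate numbers follow column order. Of 55630 rows, 57 name no gene, hold no counts and were left out.

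The test on counts was the quasi-likelihood test of edgeR 4.0.16 under R 4.3.3, with TMM scaling, genes kept by filterByExpr (minimum count 10), no replicate term and Benjamini-Hochberg adjustment over 15479 genes at a threshold of 0.05. The fit had 2 residual degrees of freedom per gene and a median of 18.6 prior degrees of freedom, drawn from all genes. The p-value of a gene thus rests mostly on the spread of all genes. A fold change of a member is that of the edgeR fit, and its standard error is the absolute log2 fold change divided by the square root of F. Within-library differences of log2(count + 0.5) of pairs were compared by least squares (95% interval) and by an exact permutation test with scipy 1.17.1. For pairs, log2(FPKM + 1) was the alternative scale. Promoter windows came from RefSeq, and coordinates of all 48 members are the same in the table and in GENCODE M21. Alternatives were DESeq2 1.42.0, scaling by totals, no filter or a mean of at least 5 FPKM, limma 3.58.1 on log2(FPKM + 1), also with a mean of at least 1 FPKM, or on log2(FPKM + 0.1), the robust option of edgeR, a fit with the replicate number as a block, and fits that left out 1 library each.

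The members, lists, pairs and motifs were chosen with earlier results of these data known. Members were named with each library's value where they had the largest or smallest decrease of their role or did not pass. From each other list, up to 3 genes that passed were named in each direction. For 1 of these lists, 1 gene that the rule selects is left out and not reported here. Other named genes were chosen after their values were seen: further members with all values, overlapping genes, Skp2, Acta2, Myh11, Cdh5, Adgre1, Tyrobp, C1qa, Cd68, Lyz2, Hist1h2bc and Hist1h1c. Tyms and Pcna have named pseudogenes (Tyms-ps, Pcna-ps1 and Pcna-ps2), and 15 members share exonic bases with a gene on the opposite strand, so their counts are uncertain to that extent.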

Additional observations from a re-analysis of the deposited data

How the results depend on the processing

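The decrease of the members held in all 13 alternatives, with 43 to 45 called lower, or 35 of the 37 that had a mean of at least 5 FPKM, and with a median log2 fold change of -0.79 to -0.69. Leaving out 1 library at a time gave 43 to 44 lower, 0 to 1 higher (Rfc5) and medians of -0.74 to -0.70. Of 15479 genes, 4290 were lower and 4279 higher. With a mean of at least 5 FPKM, fewer genes were tested, and 2730 were lower and 2702 higher; leaving out 1 library gave 3433 to 4187 lower and 3621 to 4134 higher. Scaling by totals moved the median of all genes to -0.04. The samples of the groups share only a number: the correlation of same-numbered deviations was 0.00774, and the replicate block gave 45 members lower, 0 higher, a median of -0.74, and 4428 genes lower and 4440 higher, and Gins3 passed in it (edgeR adjusted p = 0.03982).

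Values of either sign on leaving out libraries were those of Gins4 (-0.0826 to 0.0185), Rfc5 (-0.0359 to 0.2415, with -0.0016 between), E2f2 (-0.0548 to 0.2634), Gins1 minus Gins3 (-0.5181 to 0.1488), Rpa1 minus Rpa2 (-0.0389 to 0.0617), Ccne1 minus Ccne2 (-0.3631 to 0.1563) and Chaf1a minus Chaf1b (-0.1542 to 0.0637). On the log2(FPKM + 1) scale, Rpa1 minus Rpa2 was -0.022. The cause was not tested. The share of members with an E2F motif fell from 43.6% to 23.1% when the window lost the bases after the start. Counts of a member in a library ran from 100 (Gins1) to 7663 (Rrm2), and standard errors from 0.165 (Gins1) to 0.045 (Pcna).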
